A study of Mus musculus with 15 samples.

Results

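The transporters followed here in mouse microglia after ATV:4D9 carry glucose and fructose, lactate and pyruvate, and large and small neutral amino acids. They are Slc2a1, Slc2a3, Slc2a5, Slc2a6, Slc16a1, Slc16a3, Slc7a5, Slc3a2, Slc1a5 and Slc38a2, which are 10 of the 32372 genes in the count matrix. The list was chosen by function, with earlier results of these data known. All 10 passed the filter on low counts, which left 14260 genes. Single-cell libraries were made from CD45-enriched brain cells of 15 male C57BL/6J hTfR KI mice aged 3.5 months, a line with human sequence in its transferrin receptor gene, and the labels give cortex and hippocampus as the region. Every mouse received 1 dose of 10 mg/kg. ATV:4D9 is an antibody that activates TREM2, a microglial surface receptor, and its Fc binds the transferrin receptor (the antibody transport vehicle, ATV). Control mice received ATV:RSV, a control antibody built on that vehicle. Control mice were sampled at day 1 and ATV:4D9 mice at day 1, 7, 14 or 28, giving 5 groups of 3 mice, with every group present in all 3 processing batches. No control of a later day was analysed here, so the 4 comparisons with ATV:RSV share the same 3 mice and are not independent of each other.

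Cells take up sugars and amino acids through membrane carriers that fall into families. The SLC2A proteins (GLUTs) let hexoses pass down their gradient, and microglia are known for SLC2A5, a fructose carrier that serves as a marker gene of theirs in brain. The SLC16A proteins (MCTs) move lactate and pyruvate together with protons. SLC7A5 joins SLC3A2 in a heterodimer that exchanges leucine and other large neutral amino acids, while SLC1A5 and SLC38A2 carry glutamine and other small neutral amino acids. Transcript counts measure the mRNA of these carriers and not transport itself.

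At day 1 after ATV:4D9 most of these transporter genes were higher than in the control, and the fructose carrier gene Slc2a5 was lower. The level relative to ATV:RSV was 43-fold for Slc2a6, 4.87-fold for Slc1a5, 4.26-fold for Slc16a3, 2.33-fold for Slc7a5, 2.04-fold for Slc2a1, 1.79-fold for Slc16a1 and 1.44-fold for Slc3a2. Slc2a5 was at 0.451 of the control level, and Slc2a3 and Slc38a2 did not pass the test. At day 7 Slc2a5 and Slc16a3 passed it against the control, and at days 14 and 28 none of the 10 did.

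The libraries held 102043 cells and 707518630 unique molecular identifiers (UMIs, each the count of 1 captured mRNA molecule), with 5667 to 7596 cells and 32341960 to 70307384 UMIs per mouse. Depth moved with the treatment: the median cell had 8201.5 to 8995.5 UMIs in the day 1 ATV:4D9 mice and 4694 to 6117 in the other 12. The median percent of mitochondrial UMIs per cell was also higher at day 1, at 3.96% to 4.50% in the ATV:4D9 mice, and at day 7, at 3.49% to 4.04%, than in the ATV:RSV mice, at 3.11% to 3.38%. Neither day overlapped the control, and the part of this measure in the results at both days was not tested. Counts were summed per mouse and are given as CPM (counts relative to the library size) on library sizes scaled by TMM, a factor that sets the bulk of genes level between mice. With library size alone as the scale, the median log2 difference of all genes was -0.285 at day 1 and -0.10 at day 7, in place of -0.05 and -0.005. In cells thinned to equal depth, the microglial marker P2ry12 was found in 99.3% of ATV:RSV cells and 82.8% of day 1 ATV:4D9 cells, and Sall1 in 61.4% and 39.6%. Of all cells, 1040 held 3 or more markers of another cell type, and 2579 had a barcode sequence that also occurred in another library. A lower sum per mouse cannot tell fewer cells of a type from less RNA per cell.

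Stretches of promoter are given for 4 of the transporters: Slc2a6 and Slc16a3, with large rises, Slc2a5, which fell, and Slc16a1, whose promoter holds an E-box. They come from a set of RefSeq promoter windows (GRCm38.p6, the mm10 build) that held an entry for 7 of the 10 genes. Each runs 5′ to 3′ on the strand of the gene, from 250 bases before the RefSeq start up to that start or to the first base that GENCODE M21 places in an exon. Capitals mark the letters CACGTG (E-box, bound by MYC and related factors), ACGTG and GCGTG (the core of hypoxia response elements), searched on both strands. The E-box contains ACGTG and is counted under both.
Slc2a6, chr2:27027999-27028248, minus strand: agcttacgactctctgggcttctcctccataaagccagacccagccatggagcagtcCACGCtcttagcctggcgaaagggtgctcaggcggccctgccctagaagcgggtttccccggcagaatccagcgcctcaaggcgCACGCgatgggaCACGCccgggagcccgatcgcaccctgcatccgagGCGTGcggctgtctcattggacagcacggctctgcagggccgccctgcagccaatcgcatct
Slc16a3, chr11:120948817-120949052, plus strand: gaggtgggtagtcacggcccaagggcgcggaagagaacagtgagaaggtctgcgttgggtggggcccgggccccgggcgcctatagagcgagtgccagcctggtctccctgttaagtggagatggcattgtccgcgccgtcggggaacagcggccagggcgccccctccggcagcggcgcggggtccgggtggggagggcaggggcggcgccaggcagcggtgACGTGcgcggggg
Slc16a1, chr3:104638414-104638663, plus strand: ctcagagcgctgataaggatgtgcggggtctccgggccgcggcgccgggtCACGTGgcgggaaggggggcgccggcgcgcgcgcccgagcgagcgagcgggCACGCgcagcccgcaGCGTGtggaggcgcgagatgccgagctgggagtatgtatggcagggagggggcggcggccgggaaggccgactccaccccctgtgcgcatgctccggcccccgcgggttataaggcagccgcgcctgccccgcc
Slc2a5, chr4:150119094-150119282, plus strand: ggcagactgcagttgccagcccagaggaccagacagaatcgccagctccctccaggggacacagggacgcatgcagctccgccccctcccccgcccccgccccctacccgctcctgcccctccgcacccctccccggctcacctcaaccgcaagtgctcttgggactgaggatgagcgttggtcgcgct
The 250-base window of Slc2a6 held GCGTG 4 times, that of Slc16a3 held ACGTG 2 times (one of them past the stretch shown), and that of Slc2a5 held none of these letters. CACGTG was present in 1 of the 7 windows and in 6.05% of 27025 promoter windows of the same length, ACGTG in 4 of 7 and 16.6% of all, and GCGTG in 3 of 7 and 28.2% of all. The amino acid response core TGATGNAA was in 0 of the 7 and in 3.53% of all. Of the windows with ACGTG, that of Slc3a2 (chr19:8713898-8714147) lay inside the GENCODE span of its gene and began in an exon. The ACGTG match of Slc2a1 ran across the first exon base. The Slc16a3 window also lay inside the span of its gene. These matches describe the letters in the windows and say nothing about binding.

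Of the 10 transporters, 8 were called at day 1, 7 higher and 1 lower, where called means a Benjamini-Hochberg adjusted p under 0.05 from limma-voom over all genes tested. In the same comparison 9872 of 14260 genes, or 69.2%, were called, so a call at day 1 does not by itself set the transporters apart. Of the 10, 5 were called with at least a 2-fold rise, beside 1822 of the 14260 genes. With at least a 2-fold fall, 1 of the 10 was called, beside 1058 of the 14260. The median log2 difference was 0.93 over the 10 and -0.05 over all genes. Because the list was chosen with earlier results of these data known, this contrast is a description only.

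**Figure D1:**
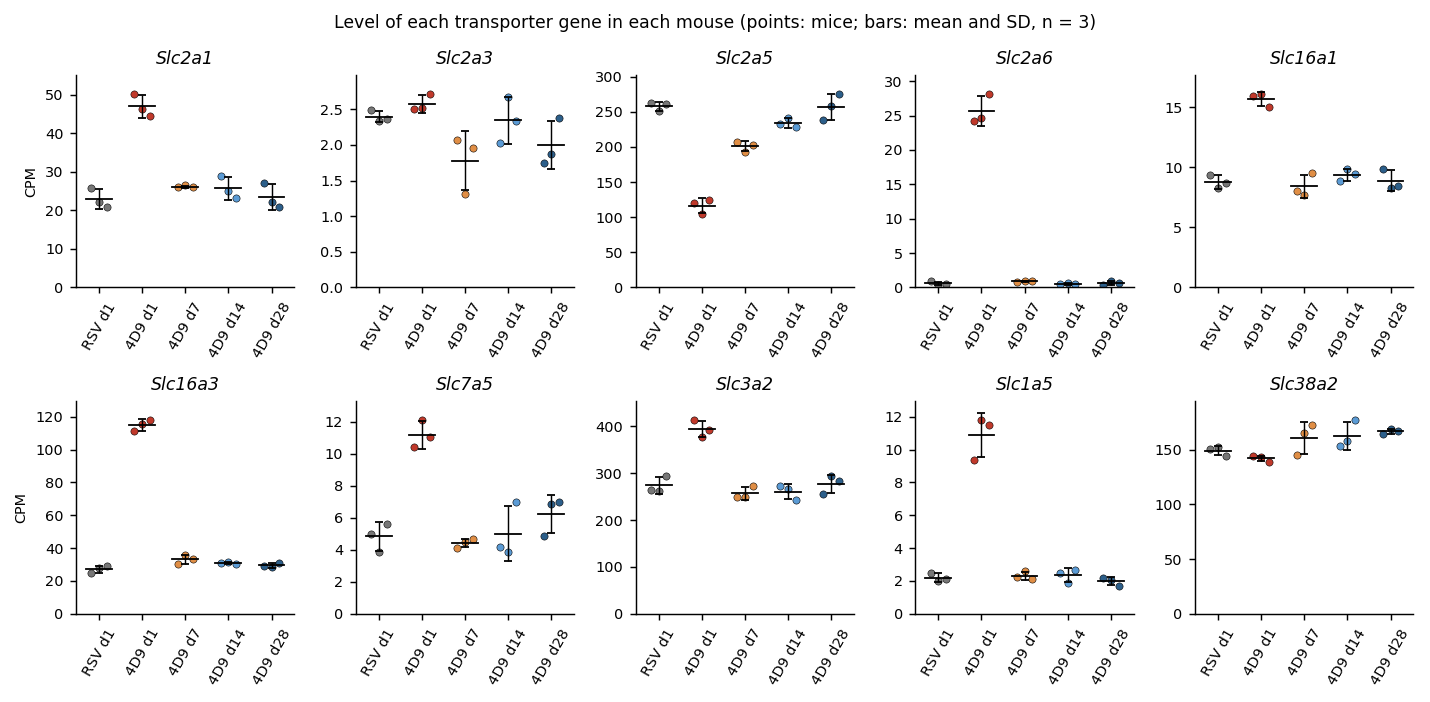
TMM-scaled level (CPM, linear axis from 0) of each of the 10 transporter genes in each of the 15 mice, with the mean and SD of 3 mice per group (RSV, ATV:RSV; 4D9, ATV:4D9; d, day). The day 1 ATV:4D9 mice do not overlap the control in 10 of 10 panels, where 71.5% of all genes tested do not overlap, upward in 8 and downward for Slc2a5 and Slc38a2, though Slc2a3 and Slc38a2 did not pass the test.

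Among the sugar carriers, Slc2a1, Slc2a5 and Slc2a6 changed at day 1 and Slc2a3 did not pass the test. Slc2a6 (chr2:27021363-27027998, minus strand, mm10), which encodes GLUT6, a hexose carrier found mainly on lysosomal membranes, was scarce in control microglia, at 0.879, 0.386 and 0.549 CPM. It reached 24.3, 24.6 and 28.1 CPM in the 3 day 1 mice. All of the day 1 mice lay far above every control mouse (log2 5.43, SE 0.27, adjusted p 7.6e-11 by limma-voom, 95% interval 4.84 to 6.01). The control counts behind this were only 16 to 43 UMIs per mouse. At day 7 the values were 0.821, 0.901 and 0.971 CPM, at day 14 0.445, 0.715 and 0.484 CPM and at day 28 0.35, 0.881 and 0.713 CPM. These later values overlapped the control range, and Slc2a6 was not called at any later day (log2 0.63, SE 0.36 at day 7).

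Slc2a1 (chr4:119108711-119137983, plus strand) encodes GLUT1, the basal glucose carrier of many cells and the main one of brain capillaries. Its level was 25.9, 22.1 and 21 CPM in the control and 50.3, 46.3 and 44.4 CPM at day 1. Every day 1 mouse was above every control mouse (log2 1.03, SE 0.10, adjusted p 1.2e-07 by limma-voom). At day 7 the 3 mice were at 26, 26.5 and 26.1 CPM, each above the highest control mouse, by a difference that did not pass the test (log2 0.19, SE 0.11, adjusted p 0.41 by limma-voom). At days 14 and 28 the range of 21 to 28.9 CPM overlapped the control. The 8 markers of endothelium, a tissue rich in Slc2a1 mRNA, summed to 23.8 to 31.3 CPM in the control and 20.7 to 25.6 CPM at day 1, all with UMIs in both groups. These markers went both ways in thinned cells: Pecam1, the most abundant, was found in 5.83% of control and 2.32% of day 1 cells, and Cldn5 in 0.574% and 0.457%, but Cdh5 in 0.335% and 1.14%, Kdr in 1.48% and 1.79% and Flt1 in 0.516% and 0.573%. Of all cells, 39 (0.0382%) held 3 or more of them, and their part in the Slc2a1 level was not tested beyond leaving such cells out. Slc2a1 also overlaps the microRNA gene Mir1957a on its strand.

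Slc2a3 (chr6:122727809-122801640, minus strand), which encodes GLUT3, the high-affinity glucose carrier best known from neurons, was scarce throughout. It measured 2.49, 2.34 and 2.36 CPM in the control and 2.5, 2.52 and 2.72 CPM at day 1, just above every control mouse but by a difference that did not pass the test (log2 0.09, 95% interval -0.22 to 0.41). At day 7 it was at 2.07, 1.31 and 1.96 CPM, below every control mouse (log2 -0.43, SE 0.17, adjusted p 0.22 by limma-voom). At days 14 and 28 its range of 1.75 to 2.67 CPM overlapped the control. The gene overlaps the pseudogene Gm4482 on the same strand, so its counts are less certain.

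Slc2a5 (chr4:150119283-150144169, plus strand) was lower at day 1 and nearer the control at each later day. The control mice had 262, 251 and 261 CPM, and the day 1 mice had 121, 104 and 124 CPM. The day 7 mice had 207, 193 and 202 CPM, the day 14 mice 232, 241 and 228 CPM, and the day 28 mice 238, 258 and 275 CPM. Days 1 and 7 lay wholly below the control, with a log2 difference of -1.15 (SE 0.06, adjusted p 2.6e-10) and -0.36 (SE 0.06, adjusted p 0.0032) by limma-voom. The day 7 difference was -0.34, -0.38 and -0.36 in the 3 batches. At day 14 each mouse was still below each control mouse (log2 -0.14, SE 0.06, unadjusted p 0.043, adjusted p 0.90 by limma-voom), which did not pass the test, and at day 28 the groups overlapped (log2 -0.01, 95% interval -0.14 to 0.13). Day 28 was above day 7 in all 3 mice (log2 0.36, SE 0.06, adjusted p 0.0057 by limma-voom), a comparison in which 2.13% of all genes were called.

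Both lactate carrier genes rose at day 1, with a larger log2 difference for Slc16a3 than for Slc16a1. Slc16a3 (chr11:120948480-120960868, plus strand), encoding MCT4, a lactate exporter of glycolytic cells, had 24.7, 27.6 and 29 CPM in the control and 111, 116 and 118 CPM at day 1. The day 1 mice lay close together and far above the control (log2 2.09, SE 0.07, adjusted p 4.6e-13 by limma-voom). At day 7 they had 30.2, 36.1 and 33.2 CPM, all above the highest control mouse (log2 0.29, SE 0.07, adjusted p 0.028 by limma-voom). The day 7 call was lost in 7 of 25 alternative fits, with adjusted p from 0.0028 to 0.12 over them, including limma-voom without ATV:RSV replicate 1 (0.12) or 2 (0.068) and without day 7 replicate 2 (0.12) or 3 (0.11). At day 14 Slc16a3 was at 30.7, 31.8 and 30.4 CPM (log2 0.20, SE 0.07, unadjusted p 0.013, adjusted p 0.60 by limma-voom), and at day 28 at 29.2, 28.2 and 31.1 CPM. The day 14 mice were all above the control mice, and at day 28 the groups overlapped.

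Slc16a1 (chr3:104638668-104658462, plus strand), encoding MCT1, a widely expressed lactate and pyruvate carrier, had 9.4, 8.25 and 8.69 CPM in the control and 15.9, 16.1 and 15 CPM at day 1. The groups did not overlap (log2 0.84, SE 0.08, adjusted p 2.4e-07 by limma-voom). Its later levels ran from 7.74 to 9.88 CPM and overlapped the control at each day, with log2 -0.05 (95% interval -0.26 to 0.16) at day 7 and 0.01 (95% interval -0.19 to 0.21) at day 28. The gene overlaps the sense-intronic genes Gm43581 and Gm43585.

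Of the 4 amino acid carrier genes, 3 rose at day 1. Slc7a5 (chr8:121881150-121907694, minus strand), the transport subunit LAT1 of the leucine exchanger, was at 4.99, 3.86 and 5.63 CPM in the control and at 10.4, 12.1 and 11 CPM at day 1. Every day 1 mouse was above every control mouse (log2 1.22, SE 0.18, adjusted p 1.6e-05 by limma-voom). Its partner Slc3a2 (chr19:8706882-8723369, minus strand), the heavy chain that brings several light chains to the surface, was at 265, 263 and 295 CPM in the control and at 413, 378 and 392.3 CPM at day 1. It too was higher in every mouse (log2 0.52, SE 0.06, adjusted p 2.6e-06 by limma-voom). Neither was called later, and the Slc7a5 values spread widely, from 3.84 to 7.0 CPM at day 14 and from 4.88 to 6.97 CPM at day 28 (log2 0.36 at day 28, 95% interval -0.06 to 0.78).

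Slc1a5 (chr7:16781340-16798274, plus strand), encoding ASCT2, an exchanger of glutamine and other neutral amino acids, was at 2.49, 2.0 and 2.1 CPM in the control and at 9.35, 11.8 and 11.5 CPM at day 1. The day 1 group stood wholly above the control (log2 2.28, SE 0.15, adjusted p 1.8e-09 by limma-voom), on 83 to 122 UMIs per control mouse and 537 to 722 per day 1 mouse. From day 7 to day 28 the 9 mice ranged from 1.69 to 2.66 CPM around the control values.

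Slc38a2 (chr15:96687392-96699730, minus strand) encodes SNAT2, a sodium-coupled carrier whose mRNA is known to rise when amino acids are short. It was at 151, 152 and 144 CPM in the control and at 144, 143 and 139 CPM at day 1. The day 1 mice were just below the control mice, by a difference that did not pass the test (log2 -0.07, SE 0.06, adjusted p 0.33 by limma-voom, 95% interval -0.20 to 0.06). With library size alone as the scale it was -0.31 (adjusted p 0.00088 by limma-voom), beside the shift of -0.285 in the median gene under that scale. At day 28 it was at 165, 169 and 167 CPM, above every control mouse (log2 0.16, SE 0.06, unadjusted p 0.020, adjusted p 1.00 by limma-voom), which did not pass the test either.

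Against the control, 2 of the 10 transporters were called at day 7, beside 568 of 14260 genes or 3.98%, and 0 of 10 at day 14, beside 57 genes or 0.400%, both by limma-voom. The members with an unadjusted p under 0.05 numbered 3 at day 7, 2 at day 14 and 1 at day 28. Over all 14260 genes, 2336, 770 and 571 reached that threshold in the same limma-voom fit. At day 28 limma-voom called 0 of 14260 genes (0%), with 571 at an unadjusted p under 0.05, where edgeR called 0 and DESeq2 14. DESeq2 and edgeR also called 0 of the 10 members at days 14 and 28. The groups did not overlap for 4 of the 10 at day 7, 3 at day 14 and 1 at day 28, beside 21.2%, 10.4% and 8.93% of all genes. The median log2 difference of the 10 was 0.004 at day 7, 0.06 at day 14 and 0.02 at day 28.

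**Figure D2:**
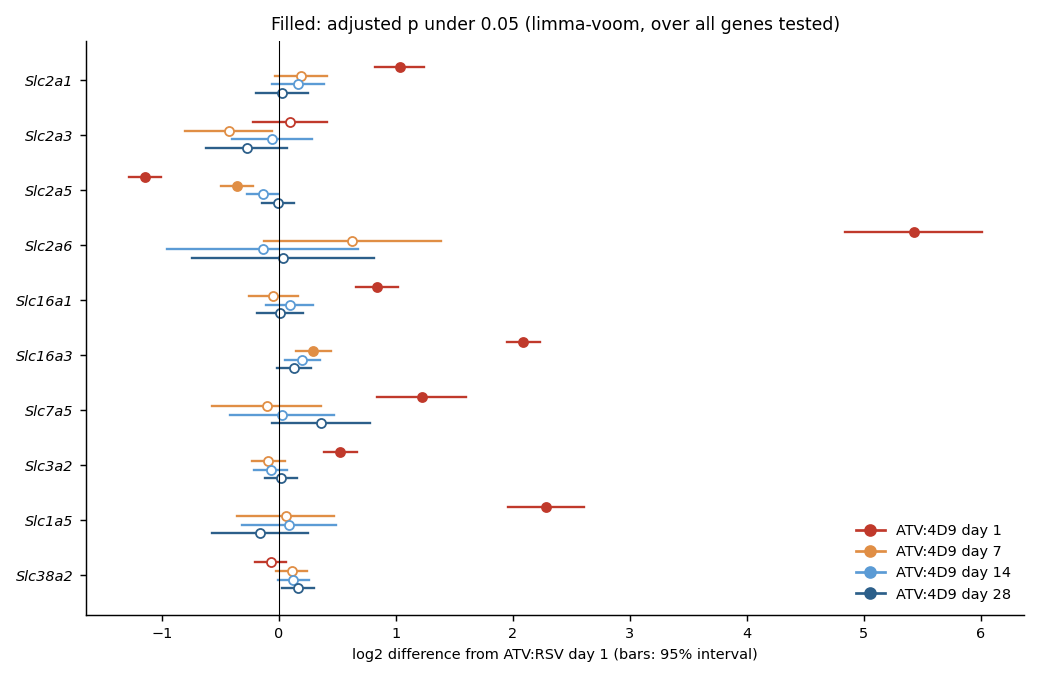
Log2 difference of each ATV:4D9 day from ATV:RSV day 1 for the 10 transporter genes, with 95% intervals from limma-voom and filled points for adjusted p under 0.05. The day 1 points run from -1.15 for Slc2a5 to 5.43 for Slc2a6, and at day 7 the filled points are those of Slc2a5 and Slc16a3.

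The return from day 1 was tested directly between ATV:4D9 mice. From day 1 to day 7 all 10 genes were called by limma-voom, 8 lower and 2 higher, where 66.9% of all genes were called. Slc2a6 fell by 4.80 on the log2 scale (SE 0.24), Slc1a5 fell by 2.23 (SE 0.15), Slc16a3 fell by 1.80 (SE 0.06) and Slc7a5 fell by 1.32 (SE 0.19), while Slc2a5 rose by 0.79 (SE 0.06). The calls nearest the threshold were a rise of 0.18 for Slc38a2 (SE 0.06, adjusted p 0.020 by limma-voom) and a difference of -0.52 for Slc2a3 (SE 0.17, adjusted p 0.011). That of Slc38a2 was lost in 4 of 25 alternatives, including limma-voom without day 1 replicate 3 (adjusted p 0.070) and without day 7 replicate 2 (0.068) or 3 (0.14). That of Slc2a3 was lost in 3, including limma-voom without day 7 replicate 2 (log2 -0.35, adjusted p 0.068) and with cells thinned to equal depth (log2 -0.07, adjusted p 0.79).

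No transporter was called in the later steps. From day 7 to day 14 none of the 10 was called by limma-voom, beside 130 genes or 0.912% of all. At an unadjusted p under 0.05 in that fit there were 1 of the 10 (Slc2a5, log2 0.22) and 1128 of the 14260 genes. From day 14 to day 28 none of the 10 and 0% of all genes were called by limma-voom, with 0 and 338 at an unadjusted p under 0.05, where edgeR called 0 genes and DESeq2 70. A moderated F test over the 5 groups called 9 of the 10, with Slc2a3 at an adjusted p of 0.061 (limma-voom), and 66.5% of all genes.

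The share of cells with a UMI shows how many microglia held a transcript at a set depth. Each cell was thinned at random to 3385 UMIs, and 10204 cells with fewer were left out, 8.69% to 17.8% per ATV:RSV mouse and 3.93% to 5.79% per day 1 ATV:4D9 mouse. After thinning, a Slc2a5 UMI was found in 57.4% ± 1.74 of ATV:RSV cells (SD, n = 3 mice), and in 29.5% ± 2.48 at day 1, 46.7% ± 1.47 at day 7, 53.1% ± 1.05 at day 14 and 57.5% ± 2.42 at day 28. A Slc16a3 UMI was found in 8.87% ± 0.71 of control cells and 26.4% ± 0.608 of day 1 cells. Without thinning the shares were 73.1% and 52.2% for Slc2a5 and 15.1% and 49% for Slc16a3.

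The scarcer carriers were read against genes listed as markers of other cell types. Slc2a6 was found in 0.167% ± 0.0594 of thinned control cells and 6.93% ± 0.394 at day 1, Slc1a5 in 0.675% ± 0.164 and 3.09% ± 0.451, and Slc7a5 in 1.61% ± 0.384 and 3.26% ± 0.245. In thinned control cells Cldn5 of endothelium was found in 0.574%, the 6 neuronal markers in 0.149% (Gad1) to 1.71% (Snap25) and the 6 oligodendrocyte markers in 0.0905% (Cldn11) to 8.44% (Mag), with Mbp at 5.57%. Cd79b of the B cell list was at 9.97% in the control and 7.84% at day 1. Among all cells, 7 held 3 or more of the 4 B cell markers and 193 held 3 or more oligodendrocyte markers. Whether microglia themselves make Cd79b, Mag or others of these transcripts was not tested. At day 1 the shares were 0.457% for Cldn5, 0.965% for Snap25, 3.17% for Mbp and 5.23% for Mag, with lower means than in the control and, for Cldn5, overlapping mice. The control shares of Slc2a6, Slc1a5 and Slc7a5 and the shares of Slc2a3 in all groups (0.688% to 0.85%) lie inside this range and could not be set apart from background, a limit that the folds over these low control levels share. The day 1 mean of Slc2a6 lay above Cldn5 and the neuronal and oligodendrocyte markers but below Cd79b, while those of Slc1a5 and Slc7a5 lay below Mag and near Mbp. Those of Slc16a1 in the control and at day 1, and that of Slc2a1 in the control, also lay below Mag of the same group. The control mice for Slc16a3 (8.13% to 9.54%) overlapped those for Mag (6.85% to 9.31%) and Cd79b (8.89% to 11.7%). The height of these shares alone thus does not set them apart from background, as far as these markers measure it. Slc2a1 was found in 7.95% ± 0.749 and 12.4% ± 0.834 of control and day 1 cells, Slc16a1 in 3.28% ± 0.244 and 4.55% ± 0.455, and Slc3a2 in 59.8% ± 2.39 and 67.7% ± 2.0.

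In an exact permutation test of the 5 groups (two-sided, labels exchanged inside each batch, 14400 arrangements), the thinned share differed at an unadjusted p under 0.05 for 9 of the 10 genes, beside 65.1% of the 14260 genes in the same test. The p was 0.00035 for Slc2a5, 0.0038 for Slc3a2, 0.0039 for Slc16a3, 0.018 for Slc38a2, 0.019 for Slc2a1 and 0.56 for Slc2a3. Where day 1 stands far apart in every batch, a larger day 1 difference no longer lowers this p. The order of the p-values is therefore not an order of effect size. Without thinning Slc2a3 passed (exact permutation p 0.0049) and Slc38a2 did not (0.073), and with at least 2 UMIs required in a cell Slc7a5 did not pass (0.10). Slc38a2 was found in 37.2% ± 0.804 of control cells and 33.6% ± 1.64 of day 1 cells after thinning, but in 51.4% and 60.8% without it, and averaged 0.972 and 1.19 UMIs per cell (exact permutation p 0.14 over the 5 groups). The direction for Slc38a2 thus depended on whether depth was set equal.

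**Figure D3:**
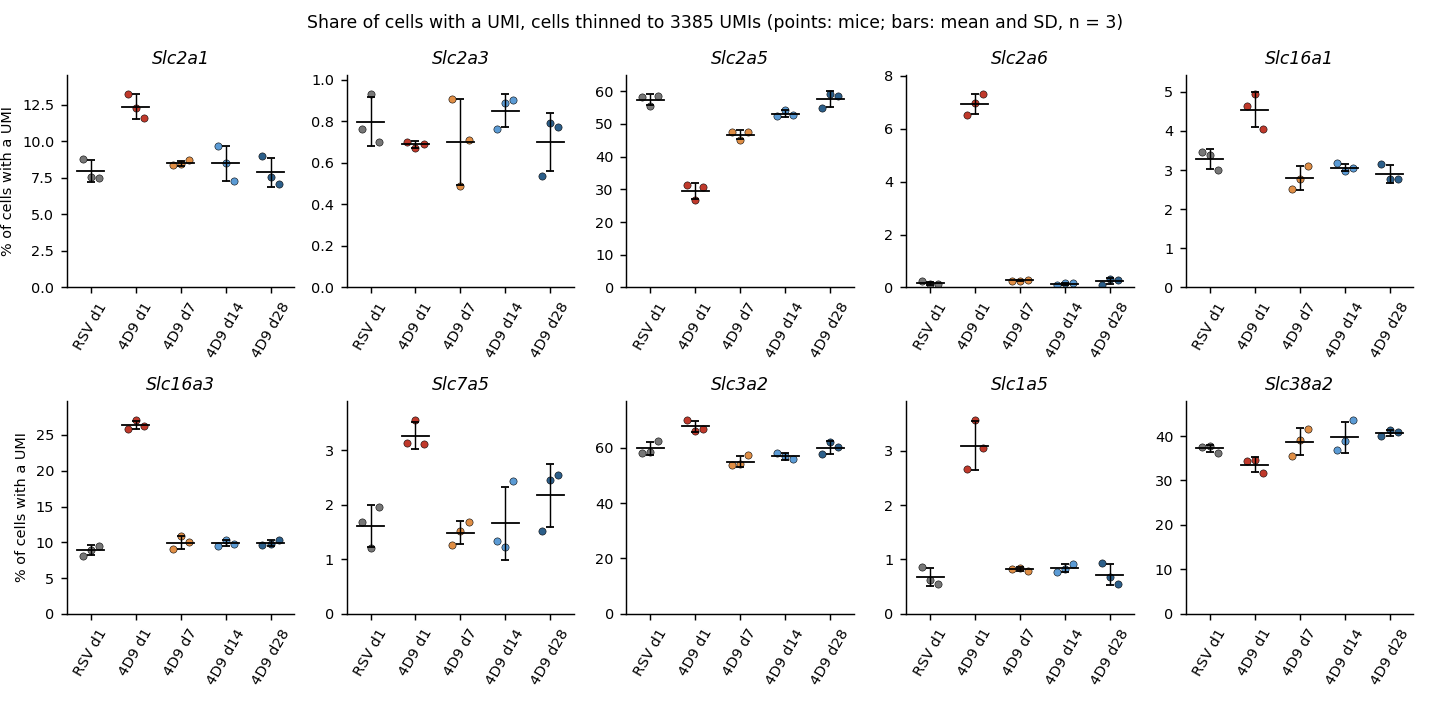
Share of cells with at least 1 UMI of each transporter (percent, axis from 0) in each of the 15 mice after thinning every cell to 3385 UMIs, with the mean and SD of 3 mice. Slc2a5 dips to 29.5% at day 1 and is at 57.5% by day 28, and Slc16a3 peaks at 26.4% at day 1.

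The deposited cell table places each cell in cluster 0, 1 or 2, and the transporters were also summed within clusters, as CPM of the summed cells without TMM. The clusters were built from the same counts, so these values are a description with no test. Cluster 2 held 5607 to 6597 cells of each day 1 ATV:4D9 mouse and 74 to 245 cells of each other mouse. Slc2a5 in cluster 2 was at 127 ± 17.2 CPM in ATV:RSV and 95.8 ± 8.46 CPM at day 1 (SD, n = 3 mice). This was below cluster 0, with 256 ± 3.3 and 246 ± 29.4 CPM, and cluster 1, with 322 ± 7.49 and 300.2 ± 28.2 CPM. The few day 1 cells in clusters 0 and 1, 180 to 555 per mouse and cluster, thus held Slc2a5 near the control level. At day 7, when clusters 0 and 1 again held most cells, Slc2a5 was at 192 ± 5.37 CPM in cluster 0 and 226 ± 8.63 in cluster 1. The day 7 mice lay below the control mice in both (186 to 195 against 252 to 258 CPM in cluster 0, 216 to 231 against 316 to 331 in cluster 1), and at day 28 the means were 251 ± 16.7 and 316 ± 26 CPM.

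Slc2a6 and Slc16a3 were highest in cluster 2. Slc2a6 was at 23.8 ± 1.22 CPM in day 1 cells of cluster 2, and day 1 cells of clusters 0 and 1 held 5.4 ± 0.786 and 7.05 ± 2.84 CPM, on 5 to 14 UMIs per mouse and cluster, beside 0.588 ± 0.249 and 0.374 ± 0.0889 CPM in the control. The small cluster 2 of the control mice held Slc2a6 at 4.87 ± 4.01 CPM, on 1 to 14 UMIs per mouse. Slc16a3 was at 106 ± 1.48 CPM in day 1 cells of cluster 2 and 40 ± 6.4 and 55.2 ± 1.01 CPM in those of clusters 0 and 1, beside 50.5 ± 20.4, 27.9 ± 1.76 and 28.8 ± 3.5 CPM in the control cells of clusters 2, 0 and 1. The mean of both genes was therefore higher at day 1 than in the control within each cluster. Slc16a1, higher over all cells at day 1, was not higher within any cluster on this scale without TMM. Its means were 7.04, 7.69 and 14.4 CPM at day 1 and 8.84, 9.8 and 17.1 CPM in the control in clusters 0, 1 and 2. Slc2a1 was at 22.2, 26.6 and 43.0 CPM at day 1 and 23.7, 24.5 and 39.1 CPM in the control, and on this scale the mice overlapped in all 3 clusters. The TMM factors over all cells were 0.878 to 0.906 in the day 1 mice and 1.05 to 1.06 in the control mice. Applied to the clusters, they would raise day 1 levels relative to the control, which was not done here. Slc3a2 differed less between clusters, at 358 ± 19.4, 342 ± 24.3 and 353 ± 18.5 CPM at day 1 in clusters 0, 1 and 2 and 293 ± 20.9, 279.7 ± 14.8 and 339.9 ± 22.3 CPM in the control. Slc38a2 was highest in cluster 0, with 179 ± 1.1 CPM there, 113 ± 9.97 in cluster 1 and 126 ± 22.5 in cluster 2 of the control.

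**Figure D4:**
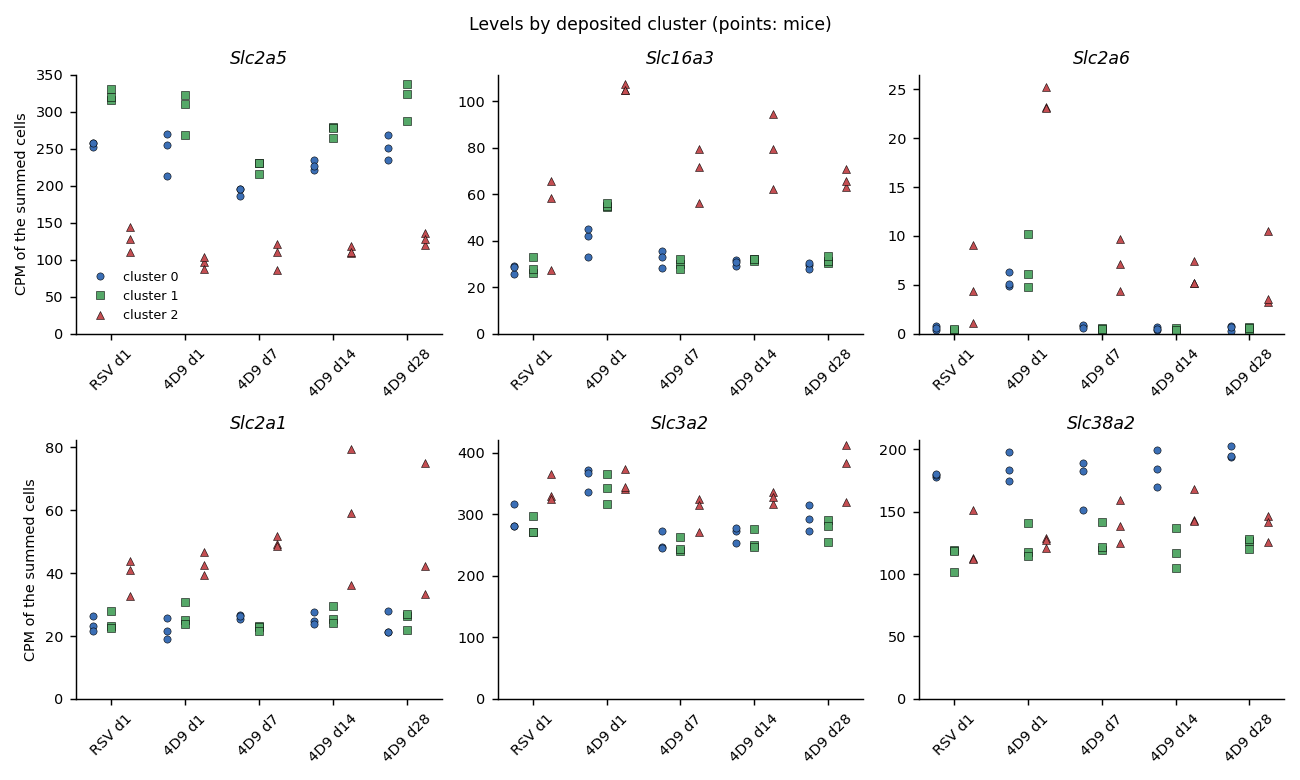
Level of transporters in the summed cells of each deposited cluster (CPM, linear axis from 0), 1 point per mouse, by group. Slc2a5 is lowest in cluster 2 in each group and lower at day 7 than in the control within clusters 0 and 1, and the day 1 means of Slc16a3 and Slc2a6 are highest in cluster 2.

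Partner genes were looked at cell by cell in thinned cells. At day 1, 2.34% of cells held both Slc7a5 and Slc3a2, beside a product of the separate shares of 2.21%, and in the control the values were 1.02% and 0.969%. Slc16a3 and Bsg (basigin, which escorts MCT1 and MCT4 to the membrane) were found together in 22.2% of day 1 cells, beside a product of 22%. Slc2a5 and Slc16a3, which moved in opposite directions, were found together in 6.62% of day 1 cells, beside a product of 7.78%, and in 5.26% of control cells, beside 5.1%. At these low counts per cell such values are a description only.

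The wider transport and sensing machinery was read from 6 lists of 127 genes in all, of which 98 were tested and 74 called at day 1 by limma-voom, beside the 69.2% called over all genes. Of the other sugar transporters, 5 were tested, with 0 higher, 2 lower and 3 not called (median log2 -0.13). The lower ones were Slc2a8, an intracellular hexose carrier, at 22.6 ± 1.3 against 33.9 ± 3.75 CPM (log2 -0.58, SE 0.09), and Slc50a1, a sugar carrier of the SWEET family, at 91.8 ± 3.85 against 101 ± 2.95 CPM (log2 -0.13, SE 0.05). Of the other monocarboxylate carriers and chaperones, 5 of 11 tested were higher and 3 lower (median 0.31). The log2 difference was 1.03 (SE 0.11) for Slc16a10, a carrier of aromatic amino acids, 0.68 (SE 0.05) for Mpc1, a subunit of the mitochondrial pyruvate carrier, -0.67 (SE 0.06) for Slc16a6 and -2.44 (SE 0.19) for Slc16a9. Slc16a9 was still lower at day 7, at 1.63 ± 0.0289 against 2.76 ± 0.295 CPM (log2 -0.75, SE 0.15, adjusted p 0.0095 by limma-voom), a call that held with each of the 15 mice left out.

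The other amino acid transporters went both ways at day 1, with 10 of 26 tested higher, 9 lower and 7 not called (median 0.12). The highest log2 differences were those of Slc43a1, a further carrier of large neutral amino acids (6.28 ± 0.428 against 1.29 ± 0.157 CPM, log2 2.28, SE 0.15), and Slc7a11, the cystine/glutamate exchanger (8.96 ± 2.77 against 1.9 ± 0.0505 CPM, log2 2.15, SE 0.28). The lowest were those of Slc43a2, a relative of Slc43a1 (23.5 ± 2.51 against 50 ± 2.52 CPM, log2 -1.09, SE 0.09), and Slc1a3, a glutamate carrier (123 ± 5.7 against 223 ± 23.4 CPM, log2 -0.85, SE 0.13). The carriers of large neutral amino acids thus differed, with Slc7a5 and Slc43a1 higher and Slc43a2 lower.

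Of the regulators of transporter genes and of surface transporters, 5 of 19 tested were higher and 9 lower at day 1 (median -0.31). Hif1a, the oxygen-regulated factor subunit, was higher (122 ± 6.93 against 77.5 ± 1.36 CPM, log2 0.65, SE 0.07), as was Egln3, a prolyl hydroxylase that acts on it (log2 1.096, SE 0.29), and the forkhead factors Foxo1 (log2 -0.87, SE 0.11) and Foxo3 (log2 -1.11, SE 0.06) were lower. At day 7 Vhl, which marks HIF1A for degradation, was higher (log2 0.22, SE 0.05, adjusted p 0.019) and Myc lower (log2 -0.63, SE 0.16, adjusted p 0.042) by limma-voom. With each of the 15 mice left out in turn the call of Vhl held in 10 fits and that of Myc in 7, and both were lost without any 1 of the 3 ATV:RSV mice. The list of amino acid sensing at mTORC1 had 10 of 23 tested higher and 9 lower at day 1 (median -0.07). Lars, leucyl-tRNA synthetase (log2 1.02, SE 0.10), and Lamtor2, a part of the lysosomal Ragulator complex (log2 0.77, SE 0.05), were highest, and the arginine sensor Castor1 (log2 -1.49, SE 0.13) and Flcn, folliculin (log2 -1.20, SE 0.10), were lowest.

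Of the first enzymes that act on the carried substrates, 7 of 14 tested were higher and 5 lower at day 1 (median 0.16). Asns, asparagine synthetase, had the highest log2 difference (4.46 ± 1.32 against 0.544 ± 0.192 CPM, log2 3.07, SE 0.35), followed by Ldha, lactate dehydrogenase A (449 ± 36.5 against 119 ± 4.87 CPM, log2 1.92, SE 0.06). Glul, glutamine synthetase, was lower (516 ± 36.8 against 1047 ± 45.8 CPM, log2 -1.02, SE 0.15), as was Bcat1, a branched-chain aminotransferase (log2 -0.89, SE 0.26). At day 7 Hk1, a hexokinase, was lower (log2 -0.32, SE 0.07, adjusted p 0.021 by limma-voom), a call lost without ATV:RSV replicate 1 or 2 or day 7 replicate 3. Over the 6 lists 4 of 98 genes were called at day 7 (3.98% over all genes) and 0 at days 14 and 28 by limma-voom. At an unadjusted p under 0.05 in that fit there were 22, 5 and 7 of the 98 at days 7, 14 and 28. Over all 14260 genes there were 2336, 770 and 571. With the batch number as a replicate block 9 of the list genes were called at day 7, and the share of all genes under that setting is not given here.

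**Figure D5:**
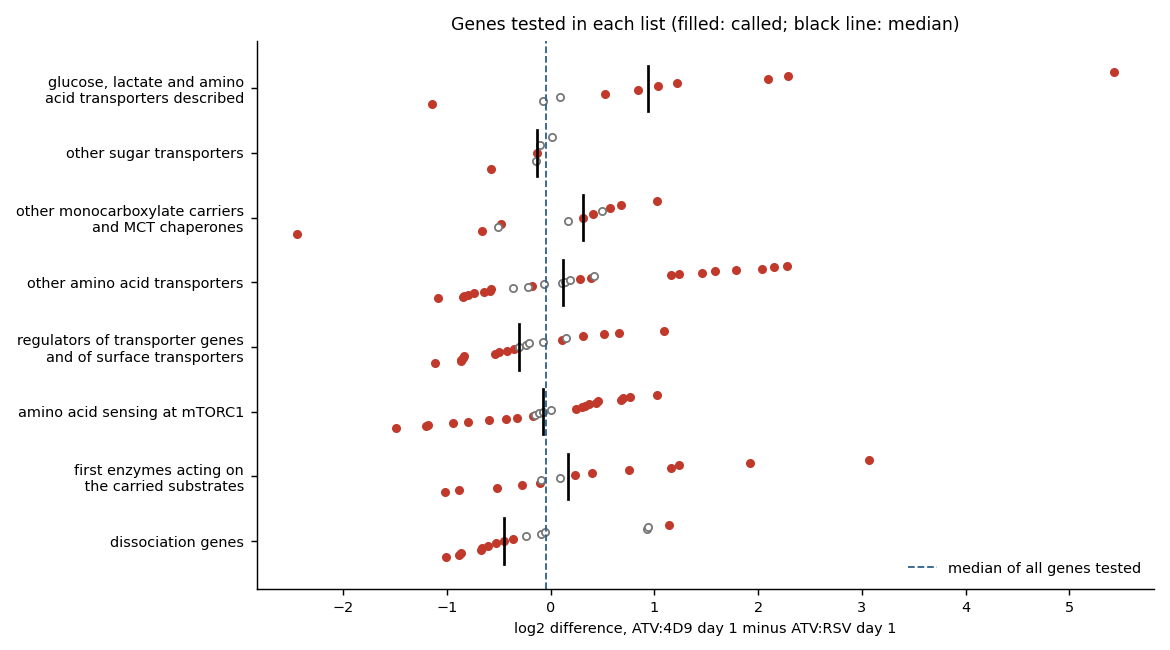
Log2 difference of ATV:4D9 day 1 from ATV:RSV day 1 for the genes tested in each list, with filled points for adjusted p under 0.05, a line at each list's median and a dashed line at the median of all genes tested. The 10 transporters described have a median of 0.93, and the other lists have medians from -0.45 to 0.31. All lists were chosen with earlier results of these data known.

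Lists of other kinds were read at day 1 in the same way. The 15 genes known to respond to tissue dissociation had 1 called higher and 9 lower (median -0.45), or 10 of 15 beside the 69.2% called over all genes, with a summed level of 26872 to 29492 CPM in the control mice and 18112 to 20654 CPM at day 1. Jun (log2 -0.88, SE 0.06) and Jund (log2 -1.01, SE 0.06), subunits of AP-1, were lower, and Ier3 was higher (log2 1.14, SE 0.22). The summed level of the 5 monocyte markers was 4.25 to 10.9 CPM in the control and 15.8 to 19.9 CPM at day 1, with UMIs of all 5 in both groups. Within this list Plac8 was found in 0.338% of thinned control cells and 2.66% at day 1, while Ccr2 was found in 1.67% and 0.677% and Chil3 in 0.0701% and 0.0059%, so the list did not move as one. Its other members, Ly6c2 and Vcan, are not described here. Markers of some other types lay lower at day 1, with summed levels of 32.4 to 36.7 against 45.9 to 62.0 CPM for the 6 oligodendrocyte markers and, again without overlap, 5.31 to 7.23 against 8.995 to 11.6 CPM for the 6 neuronal markers. The sum of the 7 astrocyte markers, 129 to 138 against 209 to 257 CPM, was mostly Slc1a3, described above as an amino acid transporter. Of the other 6, Slc1a2 (1.43% of thinned control cells and 0.947% at day 1) and Atp1b2 (0.186% and 0.0866%) were also lower without overlap, Aldoc (1.25% and 0.937%) and Gja1 (0.101% and 0.0582%) had lower means with overlap, and Gfap (0.226% and 0.23%) and Aqp4 (0.107% and 0.102%) overlapped with near equal means. The 6 T and NK cell markers were higher at day 1, at 0.424 to 1.09 against 0.0716 to 0.409 CPM, the 5 pericyte markers overlapped (1.24 to 3.9 and 1.38 to 3.31 CPM), and the 5 erythroid markers spread from 9.09 to 368 CPM in the control and 2.14 to 36.9 CPM at day 1. The 6 markers of border-associated macrophages summed to 17.7 to 27.0 CPM at day 1 and 15.2 to 18.3 CPM in the control, with overlap. They went both ways in thinned cells. Mrc1 was lower at day 1 (1.55% to 1.88% against 2.20% to 3.02% in the control), and Pf4 was higher (1.70% to 2.28% against 1.19% to 1.58%). The summed level of the 6 neutrophil markers was 3.16 to 9.07 CPM in the control, 1.56 to 8.34 CPM at day 1 and 3.48 to 142 CPM at day 7, with Ly6g found in 0% of thinned cells in the control and at day 1. Leaving out the 1040 cells with 3 or more markers of another type kept all 8 calls at day 1, and any further part of these groups in the transporter levels was not tested.

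The gene whose profile over the 15 mice was closest to that of each transporter was named by the root mean square difference of centred log2 CPM, as a description. The nearest to Slc2a6 was Ccl12, a chemokine (0.35), to Slc16a3 Nme2, a nucleoside diphosphate kinase (0.07), to Slc2a1 Sec61g, a subunit of the protein translocon (0.07), to Slc1a5 Tubb6, a tubulin (0.15), and to Slc2a5 Porcn, an acyltransferase of WNT proteins (0.08). Slc16a1 lay nearest to Eif1a (0.08), Slc7a5 to Myo1e (0.19), Slc3a2 to Abhd12 (0.06), Slc38a2 to Nf1 (0.06) and Slc2a3 to 4732471J01Rik (0.17).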

How the data were processed

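UMI counts per gene and cell (Chromium Single Cell 3′ v3, Cell Ranger 4.0.0 and mm10 per the submitters' processing notes) were deposited by the authors without normalization. A deposited cell table gives, per cell, UMI counts, the percent of mitochondrial UMIs, the library and the cluster, which the authors made in Seurat. Sums of the counts equalled this table in 102043 of 102043 cells. Groups and batches follow the labels, and a further control animal that they mention was not analysed here.

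Counts were summed per mouse, filtered with filterByExpr (minimum count 10, total 15), scaled by TMM and fitted by group with limma-voom over 15 mice, leaving 10 residual degrees of freedom. Versions were R 4.3.3, limma 3.58.1 and edgeR 4.0.16. P-values were adjusted by Benjamini-Hochberg over 14260 genes and measure the spread between mice, each being 1 library. Intervals are 95%, and values with ± are means and SDs of 3 mice. Alternatives were DESeq2 1.42.0, edgeR's quasi-likelihood test, other scalings and filters, reduced or thinned cells, only the groups compared, the batch block and leaving out each mouse. The scripts were tested on simulated data. Doublet treatment before deposit is not given in the sources used here, and none were called, so cells with most UMIs or with markers of another type were left out as alternatives. Shares of cells were tested by exact permutation (smallest p 6.9e-05) and their p-values were left unadjusted, because the planned adjustment over the 10 chosen genes was dropped.

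Each batch contains every condition according to the labels, which is the source of the pairing by batch number. Deviations of mice from their group mean had a mean r of 0.05 over the 30 pairs of one batch and -0.03 over the 60 other pairs. List genes named were, at each day, up to 2 called genes with the highest and 2 with the lowest log2 difference among those with 10 or more UMIs in all 6 mice. Positions are from GENCODE M21. The members and lists were chosen with earlier results of these data known.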

Additional observations from a re-analysis of the deposited data

Results flagged for a closer look

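The comparison of day 7 with day 1 among ATV:4D9 mice tests directly whether the difference from the shared control differed between these days, and it passed the threshold for each of the 10 transporters (limma-voom, adjusted p under 0.05), in a comparison where 66.9% of all genes were called. The log2 differences, day 7 minus day 1, were -0.84 for Slc2a1, -0.52 for Slc2a3, 0.79 for Slc2a5, -4.80 for Slc2a6, -0.89 for Slc16a1, -1.80 for Slc16a3, -1.32 for Slc7a5, -0.62 for Slc3a2, -2.23 for Slc1a5 and 0.18 for Slc38a2. Slc2a3 and Slc38a2 were not called against the control at either day, and both lost their call between days 1 and 7 in some alternative fits. Groups of 3 mice were too small for a search for single mice far from the rest.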

How the results depend on the processing

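For single transporters, 1727 of 1742 values under the alternatives kept their side of the threshold and 14 lost the call. In 1 the call was gained (Slc38a2 at day 1 with library size alone), and 0 changed the sign of a call. Differences that were not called could change sign, as for Slc2a3 at day 1 (log2 -0.15 to 0.12 over the alternatives). The 8 calls at day 1 and that of Slc2a5 at day 7 held in all 25 alternatives run. The transporters called at day 7 against ATV:RSV, 2 in all, came to 1 with library size alone, with no filter on low counts and with only the groups compared, and to between 1 and 2 when single mice were left out. The list genes called at day 7, 4 in all, came to 11 with library size alone, 2 with no filter on low counts, 8 with DESeq2, 9 with the batch number as a replicate block, 2 without the 5% of cells with most UMIs and 2 with thinned cells, and to between 1 and 4 when single mice were left out, with 1 without ATV:RSV replicate 1 or 2 and 2 without ATV:RSV replicate 3 or day 7 replicate 3. The share of all genes called at day 7 under each of these settings is not given here. These counts thus show how far the calls depend on processing and are no result about the genes. The replicate block changed no call of a transporter. The transporters whose share of cells differed between groups, 9 in all, came to between 2 and 3 when a batch was left out, which leaves 120 arrangements. Among so few, a gene in which only day 1 stands apart can miss the threshold however large its difference. This drop therefore does not measure how firm the shares are. Their number came to 8 with at least 2 UMIs required in a cell and to 9 with no thinning, where Slc2a3 took the place of Slc38a2. The causes of these changes were not tested. Depth limits Slc2a3, Slc2a6 and Slc1a5 in control mice, which had 97 to 122, 16 to 43 and 83 to 122 UMIs each.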
